A study of Homo sapiens with 6 samples.

Results

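The UBE2 genes encode the E2 ubiquitin-conjugating enzymes, and their transcripts were followed through a pull-down of the long non-coding RNA CyCoNP from a human neuroblastoma cell line. The members are the protein-coding genes whose symbol begins with UBE2. The count table held 37 of them among 60676 genes. Summed over the 6 libraries, 32 members had 10 counts or more, as did 12565 genes in all. The other 5 stayed below it and were not tested. These were UBE2QL1 with 9 counts over all libraries, UBE2F-SCLY with 8, UBE2NL with 7, and UBE2U and UBE2L5 with 2 each. UBE2L6 was just inside the limit, with 10 counts.

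An E2 enzyme takes activated ubiquitin from an E1 enzyme and, together with an E3 ligase, passes it to a protein. Some members of the family carry a ubiquitin-like protein such as NEDD8 or ISG15 instead. UBE2V1 and UBE2V2 resemble the others but lack the catalytic cysteine, and each forms a dimer with the active enzyme UBE2N. The dimers build chains joined through lysine K63 of ubiquitin, which serve in signalling and in tolerance of DNA damage rather than in sending proteins to the proteasome.

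All 6 libraries came from SK-N-BE cells, a neuroblastoma line, on day 1.5 of differentiation with 10 µM retinoic acid. The 2 input libraries hold RNA set aside from the extract before the pull-down. The 2 CyCoNP PD libraries hold RNA retrieved by 22 biotinylated DNA probes against CyCoNP, and the 2 LacZ PD libraries RNA retrieved by 5 probes against bacterial LacZ, which is the control. No group is untreated, and dextran sulfate was added to both pull-downs and not to the input. The study describes the pull-down as done in biological duplicate, so each group has n = 2.

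Depth was 717905 and 791970 counts for input, 1512148 and 514882 counts for CyCoNP PD, and only 18870 and 140115 counts for LacZ PD. In LacZ PD a gene reached 3 counts only at 159 CPM (counts scaled to library size) in replicate 1 and at 21.4 CPM in replicate 2, so low members could not be followed there. All 12 sympathoadrenal markers examined, among them DBH and CHGA, were detected in both inputs, and the 3 blood markers PTPRC, HBB and CD3E were at 0 counts in all 6 libraries. The fibroblast list, COL1A1, COL1A2 and DCN, summed to 455.5 CPM in input 1 and 18.9 CPM in input 2. COL1A1 took 267, 123 and 212 CPM of the replicate 1 libraries of input, CyCoNP PD and LacZ PD, against 12.6, 5.83 and 7.14 CPM of the replicate 2 libraries. COL1A1 separates the replicate numbers rather than the groups. EPCAM, an epithelial marker, did so in the other direction at low levels. It was at 0 CPM in the replicate 1 libraries. In the replicate 2 libraries of input, CyCoNP PD and LacZ PD it was at 7.58, 11.7 and 14.3 CPM. The liver markers ALB and APOA1 were each at 1.26 CPM in input 2, and the epithelial KRT5 was at 0 in all libraries. The part of these markers in the results was not tested. CyCoNP itself, listed as LINC02381, stood at 20 and 39 counts in input, 11687 and 3507 counts in CyCoNP PD, and 1 and 20 counts in LacZ PD (log2 fold change 7.59 in CyCoNP PD against input, adjusted p = 0.0137 from edgeR).

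UBE2V2 was the family member with the largest difference between CyCoNP PD and input, followed by its relative UBE2V1. Their shared partner UBE2N was not called, and its log2 fold change in CyCoNP PD against LacZ PD was -0.35 (standard error 0.66). The other tested members were spread around 0 on the log2 scale, as all genes were. The test was edgeR's quasi-likelihood test over all 12565 genes with all 6 libraries in 1 fit, and a gene was called with a Benjamini-Hochberg adjusted p under 0.05 and a log2 fold change above 1 (enriched) or below -1 (depleted). The 3 comparisons share libraries, so they are not independent of one another.

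UBE2V2, also known as MMS2, works with UBE2N in the error-free branch of DNA damage tolerance. The inputs held 100 and 165 counts of it, the CyCoNP PD libraries 2357 and 1744 counts, and the LacZ PD libraries 8 and 25 counts. As shares of each library this was 139 and 208 CPM in input, 1559 and 3387 CPM in CyCoNP PD, and 424 and 178 CPM in LacZ PD. Both CyCoNP PD libraries stood above every other library, and the LacZ PD libraries lay on either side of input 2. After TMM normalization the level was 2887 ± 1413 CPM (SD, n = 2) in CyCoNP PD, 198.7 ± 73.0 CPM (SD, n = 2) in input and 215.7 ± 52.5 CPM (SD, n = 2) in LacZ PD.

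The log2 fold change of UBE2V2 in CyCoNP PD against input was 3.86 (standard error 0.73, adjusted p = 0.0624 from edgeR). By p-value it ranked 22 among the 12565 genes, and by log2 fold change 177. Against LacZ PD the difference was 3.78 (standard error 0.76, adjusted p = 0.121 from edgeR). In LacZ PD against input it was 0.08 (standard error 0.71, adjusted p = 0.989 from edgeR). With edgeR the transcript was therefore not called in either comparison that involves CyCoNP PD. With the replicate number as a block, which takes same-numbered libraries as pairs, the differences were 3.83 against input (adjusted p = 1.85e-06 from edgeR) and 3.78 against LacZ PD (adjusted p = 8.1e-05 from edgeR), and UBE2V2 was called in both. DESeq2 without a block also called it in both, at 3.82 (adjusted p = 2.04e-07) and 3.67 (adjusted p = 1.29e-05).

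The size of the difference moved less than the call did. Without CyCoNP PD replicate 1 the log2 fold change against input was 4.31 and was called (adjusted p = 0.00662 from edgeR), and without CyCoNP PD replicate 2 it was 3.24 and was not (adjusted p = 0.0804 from edgeR). With only CyCoNP PD and input in the fit it was 3.86 with an adjusted p of 0.418 from edgeR. The adjusted p also rose when 1 LacZ PD library was left out, to 0.368 without replicate 1 and 0.41 without replicate 2 from edgeR, while the difference stayed at 3.85 and 3.87. Why the adjusted p moved was not tested.

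**Figure D1:**
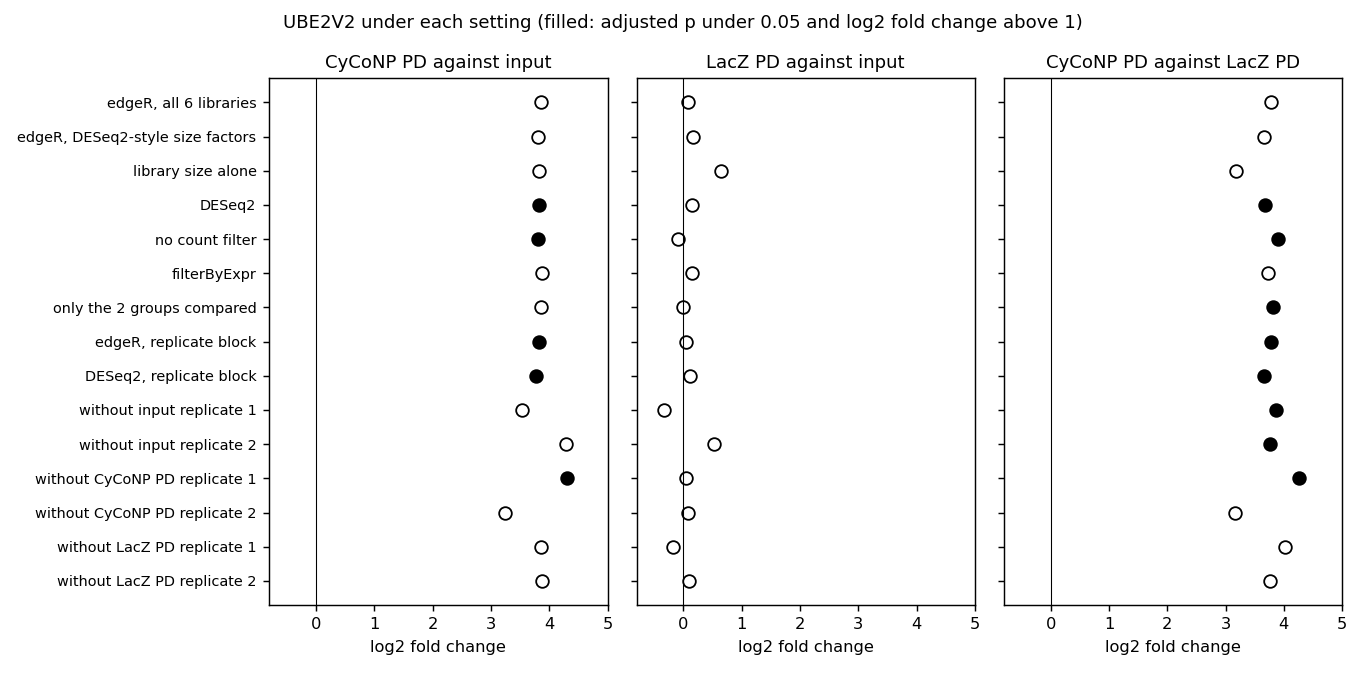
Log2 fold change of UBE2V2 (x axis) under each setting (y axis), in 3 panels for CyCoNP PD against input, LacZ PD against input and CyCoNP PD against LacZ PD; filled points were called enriched and open points were not. Against input the CyCoNP PD values lay between 3.24 and 4.31, and the LacZ PD values between -0.33 and 0.64.

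UBE2V1, also known as UEV1A, is the other catalytically inactive partner of UBE2N and is known for its part in NF-κB signalling. It took 103 and 145 CPM of input (74 and 115 counts), 312 and 944 CPM of CyCoNP PD (472 and 486 counts), and 159 and 221 CPM of LacZ PD (3 and 31 counts). By CPM both CyCoNP PD libraries were again above every other library, but they lay further apart than the inputs did. Both LacZ PD libraries were also above both inputs by CPM. The TMM-normalized level of UBE2V1 was 141.7 ± 46.4 CPM (SD, n = 2) in input and 730.5 ± 498.3 CPM (SD, n = 2) after the CyCoNP pull-down. In LacZ PD this level was 158.2 ± 89.6 CPM (SD, n = 2). The log2 fold change against input was 2.36 (standard error 0.71, adjusted p = 0.409 from edgeR), which ranked 152 by p-value. It rested in large part on CyCoNP PD replicate 2, since without it the value was 1.41, and without CyCoNP PD replicate 1 it was 2.96. With the replicate block it was 2.22 and was called (adjusted p = 0.00594 from edgeR), while DESeq2 without a block gave 2.33 and no call (adjusted p = 0.103). Against LacZ PD the difference was 2.10 (standard error 0.74, adjusted p = 0.804 from edgeR) and 2.13 with the replicate block (adjusted p = 0.1 from edgeR), and it was called by neither.

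UBE2N, also known as UBC13, is the catalytic subunit of both dimers. It took 91.9 and 85.9 CPM of input (66 and 68 counts), 173 and 99.1 CPM of CyCoNP PD (262 and 51 counts), and 212 and 264 CPM of LacZ PD (4 and 37 counts). By CPM the highest 2 libraries were those of LacZ PD, and CyCoNP PD 2 was close to the inputs. After TMM normalization the level was 195.4 ± 97.6 CPM (SD, n = 2) in LacZ PD and 161.8 ± 68.1 CPM (SD, n = 2) in CyCoNP PD. The log2 fold change was 0.70 in CyCoNP PD against input (standard error 0.63), 1.04 in LacZ PD against input (standard error 0.67) and -0.35 in CyCoNP PD against LacZ PD (standard error 0.66). Against input, the CyCoNP PD value was 0.21 without CyCoNP PD replicate 1 and 1.06 without replicate 2. UBE2N was called under none of the settings run for CyCoNP PD against input.

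Ratios of counts within a library do not depend on its depth or scaling. The log2 ratio of UBE2V2 to UBE2V1, with 0.5 added to each count, stood at 0.43 and 0.52 in the inputs, 2.32 and 1.84 in the CyCoNP PD libraries, and 1.28 and -0.30 in LacZ PD. UBE2V2 thus gained over UBE2V1 by 1.61 on the log2 scale in CyCoNP PD against input, 3.04-fold, with p = 0.333 by a two-sided exact permutation test, the smallest p that 2 against 2 libraries can give. The gap between the groups exceeded the gap between replicates in both groups, but the value of LacZ PD 1 rests on 8 and 3 counts and lies between the groups.

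Against UBE2N, the log2 ratio of UBE2V2 went from 0.60 and 1.27 in input to 3.17 and 5.08 in CyCoNP PD, a gain of 3.19 or 9.13-fold (exact permutation p = 0.333). For UBE2V1 against UBE2N the inputs stood at 0.16 and 0.75 and the CyCoNP PD libraries at 0.85 and 3.24, so the nearest libraries of the 2 groups differed by less than the replicates of either group did. The LacZ PD values of UBE2V2 to UBE2N were 0.92 and -0.56.

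**Figure D2:**
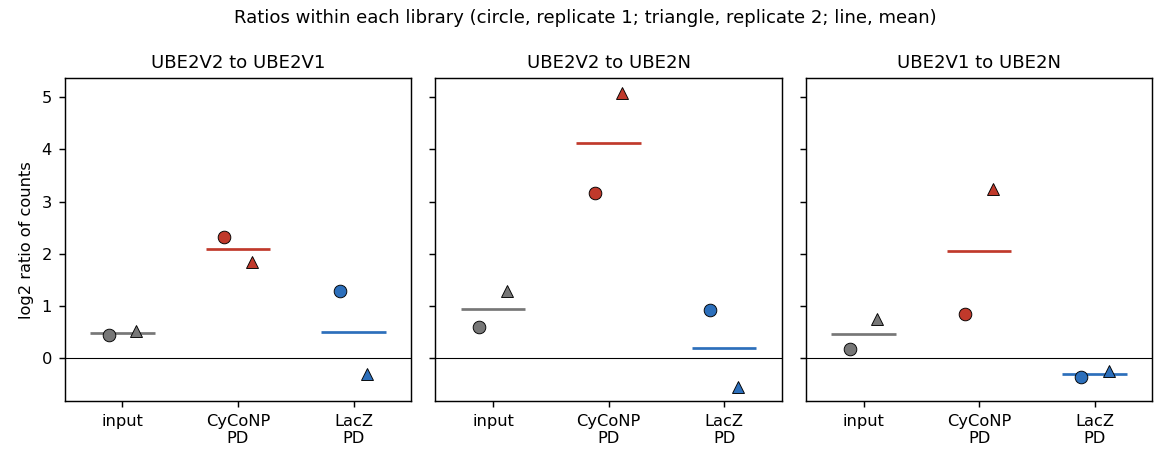
Log2 ratio of counts within each library (y axis) for UBE2V2 to UBE2V1, UBE2V2 to UBE2N and UBE2V1 to UBE2N, in input (grey), CyCoNP PD (red) and LacZ PD (blue); circles are replicate 1, triangles replicate 2 and lines the mean of both. The CyCoNP PD ratios of UBE2V2 to UBE2N, 3.17 and 5.08, stood above the other 4 libraries.

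UBE2V2 took a large part of all UBE2 counts after the CyCoNP pull-down. It made up 5.61% of them in input 1 (95% exact Clopper-Pearson interval 4.58 to 6.78, 100 of 1784 counts) and 8.81% in input 2 (7.57 to 10.2, 165 of 1872 counts). In CyCoNP PD its share was 36.0% (34.9 to 37.2, 2357 of 6542 counts) in replicate 1 and 50.6% (48.9 to 52.2, 1744 of 3449 counts) in replicate 2. In LacZ PD it was 11.9% (5.30 to 22.2, 8 of 67 counts) and 5.69% (3.72 to 8.29, 25 of 439 counts), so LacZ PD 2 was within the range of the inputs. PCR copies are not independent molecules and these reads carry no molecular identifiers, so the intervals describe counting error alone.

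**Figure D3:**
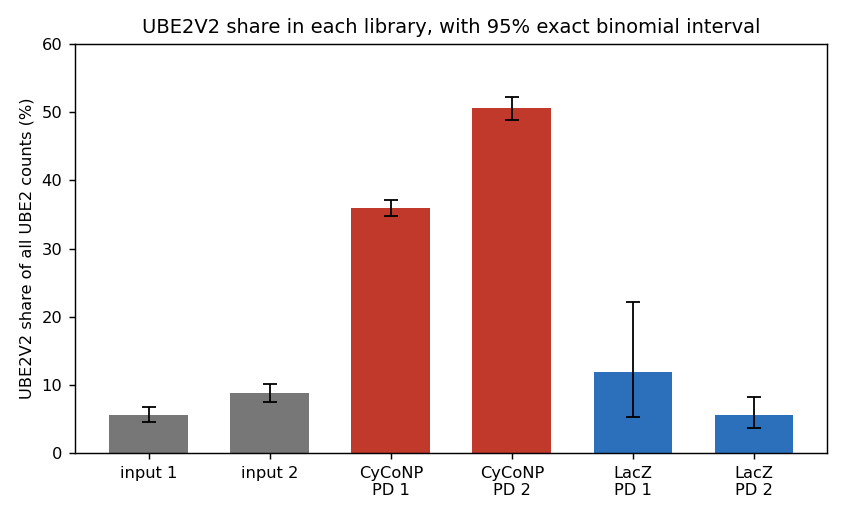
Share of all UBE2 counts that belonged to UBE2V2 (y axis, percent) in each of the 6 libraries (x axis); bars are the share and error bars its 95% exact binomial interval. The CyCoNP PD libraries stood at 36.0% and 50.6%, against 5.61% to 11.9% in the other 4.

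The UBE2 genes together summed to 2485 and 2364 CPM in the inputs, 4326 and 6699 CPM in CyCoNP PD, and 3551 and 3133 CPM in LacZ PD. Without UBE2V2 the sums were 2346 and 2155 CPM in input, 2768 and 3311 CPM in CyCoNP PD, and 3127 and 2955 CPM in LacZ PD. By library size alone, the sum over the other members was alike in both pull-downs and above the inputs. TMM scaling, which the fits used, was not applied to these sums. The TMM factor was 1.70 for LacZ PD 1 and 0.83 to 1.01 for the other libraries, and a larger factor lowers the scaled level. In CyCoNP PD the sum includes UBE2V1, at 312 and 944 CPM against 103 and 145 CPM in input. UBE2L3 was at 494 and 439 CPM there, against 120 and 206 CPM in input. By log2 fold change in CyCoNP PD against input, 14 of these 31 tested members were above 0 and 17 below.

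Over the 32 tested members, 0 were called enriched in CyCoNP PD against input by edgeR, beside 15 of 12565 genes (0.119%). At an unadjusted p under 0.05 in edgeR, 3 members were higher (UBE2V2, UBE2V1 and UBE2L3) and 1 was lower (UBE2Q1). Of all 12565 genes, 387 were higher and 291 lower at that level. With the replicate block edgeR called 2 members, UBE2V2 and UBE2V1, beside 1.53% of all genes. DESeq2 gives many genes no adjusted p, and such genes cannot be called. In this comparison 22 of the 32 members and 4770 of the 12565 genes had one, and DESeq2 called 1 of these members, UBE2V2, beside 1.22% of those genes. Depleted calls came to 0 members with the block in edgeR, beside 0.732% of all genes. UBE2Q1 and UBE2E2 were lower at an unadjusted p under 0.05 in that fit, beside 650 of the 12565 genes. DESeq2 called 0 of its 22 members depleted, beside 0.294% of the 4770 genes. The median log2 fold change of the members was -0.05 and that of all genes -0.01, with 15 members above 0 and 17 below.

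For LacZ PD against input, edgeR called 0 members enriched, beside 0% of all genes. By an unadjusted p under 0.05, 1 member was higher (UBE2A) and 2 were lower (UBE2D2 and UBE2Q1). Of all 12565 genes, 93 were higher and 789 lower at that level. DESeq2 gave an adjusted p to 13 members and 2090 genes, and called 0 of these members enriched beside 0.335% of these genes. With the block edgeR called 0 members enriched beside 0.127% of all genes, and 0 depleted beside 0.796%. For CyCoNP PD against LacZ PD edgeR called 0 members beside 0% of all genes. At an unadjusted p under 0.05, 2 members were higher, UBE2V2 and UBE2V1, beside 595 of the 12565 genes. With the block edgeR called 1, UBE2V2, beside 0.724% of all genes. DESeq2 called UBE2V2 alone among 17 members with an adjusted p, beside 1.17% of 3065 genes. The median log2 fold change of the members in LacZ PD against input was -0.14, against -0.68 over all genes, and in CyCoNP PD against LacZ PD it was 0.54, against 0.64. The median of all genes moved with the scaling of the shallow LacZ PD libraries, to -0.34 in LacZ PD against input with library size alone.

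By CPM alone, the CyCoNP PD libraries both exceeded all 4 other libraries for 4 members, beside 6.55% of all genes tested. They were UBE2V2, UBE2V1, UBE2L3 and UBE2E3, and UBE2E3 had 28 and 9 counts in input, 62 and 31 counts in CyCoNP PD, and 0 and 5 counts in LacZ PD. Both CyCoNP PD libraries were above both inputs for 7 members, beside 15.9% of all genes, and below both inputs for 5, beside 20.3%. Both LacZ PD libraries were above both inputs for 7 members, beside 10.6%, and below for 8, beside 33.7%. These placements use library size without TMM scaling, and 1 count in LacZ PD replicate 1 is 53.0 CPM. UBE2L3, UBE2V1 and UBE2N had 7, 3 and 4 counts in that library. Of the 7 members above both inputs in CyCoNP PD, UBE2L3, UBE2V1 and UBE2N were among those above both inputs in LacZ PD as well, and UBE2V2 was not.

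**Figure D4:**
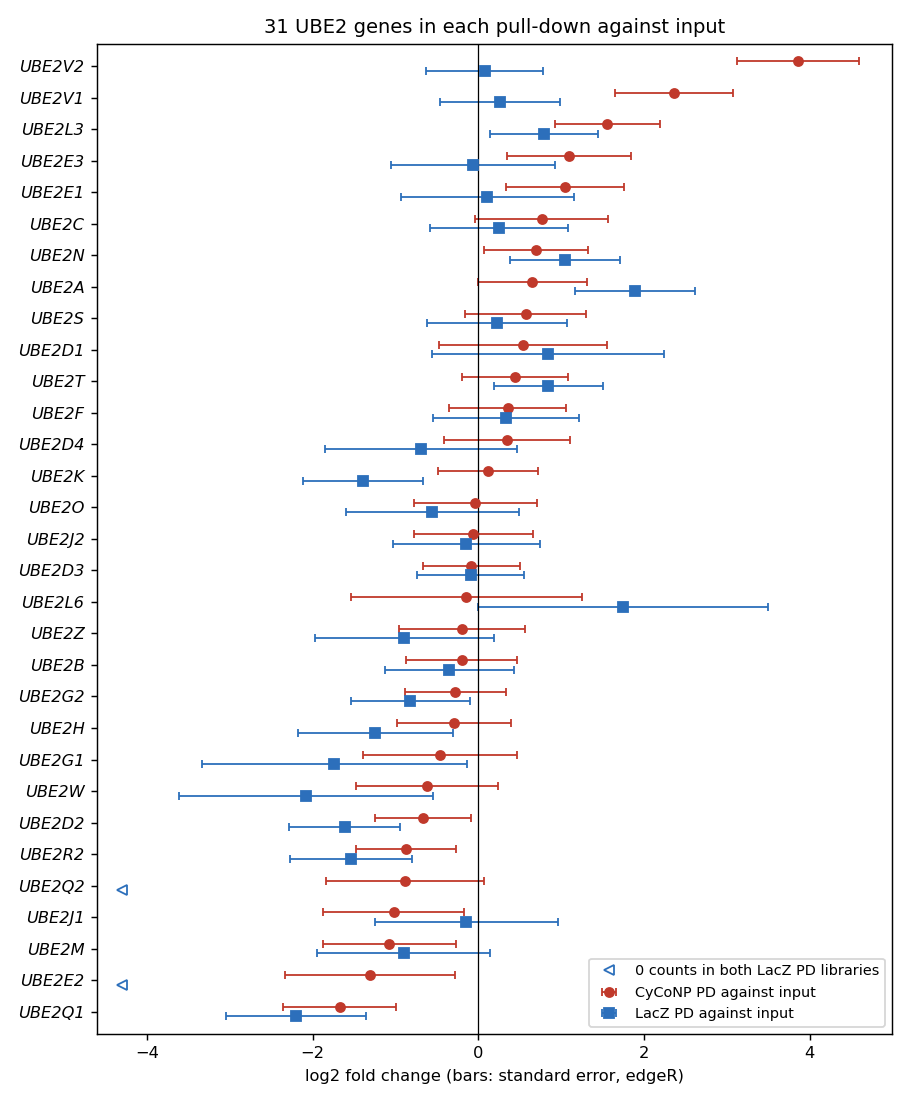
Log2 fold change with its standard error (x axis) of 31 tested UBE2 genes (y axis), in CyCoNP PD against input (red circles) and LacZ PD against input (blue squares); open triangles mark genes with 0 counts in both LacZ PD libraries. UBE2V2 stood at 3.86 and 0.08, UBE2V1 at 2.36 and 0.27 and UBE2N at 0.70 and 1.04.

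Among the broad-range E2 enzymes, which serve many E3 ligases, UBE2L3 was the highest by difference in CyCoNP PD. UBE2L3, known for its work with parkin and HECT-type ligases, took 120 and 206 CPM of input, 494 and 439 CPM of CyCoNP PD, and 371 and 407 CPM of LacZ PD. By CPM both pull-downs lay above both inputs. The log2 fold change was 1.56 in CyCoNP PD (standard error 0.64, adjusted p = 0.815 from edgeR) and 0.80 in LacZ PD (standard error 0.65), and the difference between the pull-downs was 0.76 (standard error 0.65).

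UBE2D2 and UBE2D3 are close relatives that transfer the first ubiquitin for many RING ligases. UBE2D2 took 245 and 215 CPM of input, 133 and 144 CPM of CyCoNP PD, and 159 and 78.5 CPM of LacZ PD, with both pull-downs below both inputs. Its log2 fold change was -0.66 in CyCoNP PD (standard error 0.58), while the LacZ PD value was -1.61 (standard error 0.67, adjusted p = 0.667 from edgeR). UBE2D3 took 177 and 124 CPM of input, 132 and 136 CPM of CyCoNP PD, and 318 and 136 CPM of LacZ PD, and these groups overlapped. The 8 tested members of this group, with UBE2D1, UBE2D4, UBE2E1, UBE2E2 and UBE2E3, ranged from -1.30 for UBE2E2 to 1.56 for UBE2L3 in CyCoNP PD against input, with a median of 0.44.

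Enzymes of DNA repair other than UBE2V2 lay closer to input in CyCoNP PD. UBE2T, which puts a single ubiquitin on FANCD2 in the Fanconi anaemia pathway, took 132 and 260 CPM of input, 210 and 317 CPM of CyCoNP PD, and 477 and 507 CPM of LacZ PD. By CPM the CyCoNP PD and input libraries overlapped, and both LacZ PD libraries, with 9 and 71 counts, were above all others. With TMM scaling (n = 2 per group), UBE2T averaged 396 CPM in LacZ PD, SD 158. It averaged 309 CPM for the CyCoNP pull-down, SD 77.2, and 226 CPM for input, SD 122. On that scale all groups overlapped. The log2 fold change of UBE2T was 0.45 in CyCoNP PD (standard error 0.64) and 0.85 in LacZ PD (standard error 0.66).

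UBE2A, which acts with RAD18 to place the first ubiquitin on PCNA that the UBE2N dimers extend, took 27.9 and 24.0 CPM of input, 48.9 and 27.2 CPM of CyCoNP PD, and 106 and 136 CPM of LacZ PD. The LacZ PD values, from 2 and 19 counts, were the highest. The log2 fold change was 0.65 in CyCoNP PD (standard error 0.66) and 1.89 in LacZ PD (standard error 0.73, adjusted p = 0.631 from edgeR). The former was 0.12 without CyCoNP PD replicate 1 and 1.01 without replicate 2. Over UBE2A, UBE2B, UBE2T and UBE2W the median was 0.12 in CyCoNP PD against input.

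UBE2C, the E2 that starts chains for the anaphase-promoting complex in mitosis, took 65.5 and 225 CPM of input, 214 and 278 CPM of CyCoNP PD, and 53.0 and 321 CPM of LacZ PD. Within each group replicate 2 was the higher, and the groups overlapped. The log2 fold change was 0.77 in CyCoNP PD (standard error 0.80) and 0.25 in LacZ PD (standard error 0.83). The CyCoNP PD value was 0.094 without input replicate 1 and 2.06 without input replicate 2. UBE2S, which extends these chains, and UBE2R2, which serves cullin ligases, were at 0.57 and -0.87 in CyCoNP PD. The 2 pseudogenes of UBE2S held 228 counts over all libraries against 187 for the gene, so its own value is uncertain.

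UBE2M and UBE2F, which carry NEDD8, and UBE2L6, which carries ISG15, were at log2 fold changes of -1.07 (standard error 0.80), 0.35 (standard error 0.70) and -0.14 (standard error 1.39) in CyCoNP PD against input.

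UBE2K, which builds chains through lysine K48 of ubiquitin, took 189 and 92.2 CPM of input, 153 and 132 CPM of CyCoNP PD, and 106 and 57.1 CPM of LacZ PD. CyCoNP PD lay inside the range of the inputs, and the log2 fold change was 0.12 (standard error 0.60). It belongs with UBE2G1, UBE2G2, UBE2J1 and UBE2J2, of which the G and J members serve in degradation at the endoplasmic reticulum. These 5 ranged from -1.02 to 0.12 in CyCoNP PD against input.

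UBE2Q1, a less well described member, was the lowest of the family in CyCoNP PD. It took 170 and 89.6 CPM of input, 39.0 and 36.9 CPM of CyCoNP PD, and 0 and 42.8 CPM of LacZ PD. Both pull-downs were below both inputs. Its log2 fold change was -1.67 in CyCoNP PD (standard error 0.68, adjusted p = 0.815 from edgeR) and -2.20 in LacZ PD (standard error 0.85, adjusted p = 0.631 from edgeR). With the replicate block the CyCoNP PD value was -1.66 with an adjusted p of 0.0613 from edgeR. UBE2Q2, its relative, had 44 counts in all against 75 for its 12 pseudogenes, so its value is uncertain.

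**Figure D5:**
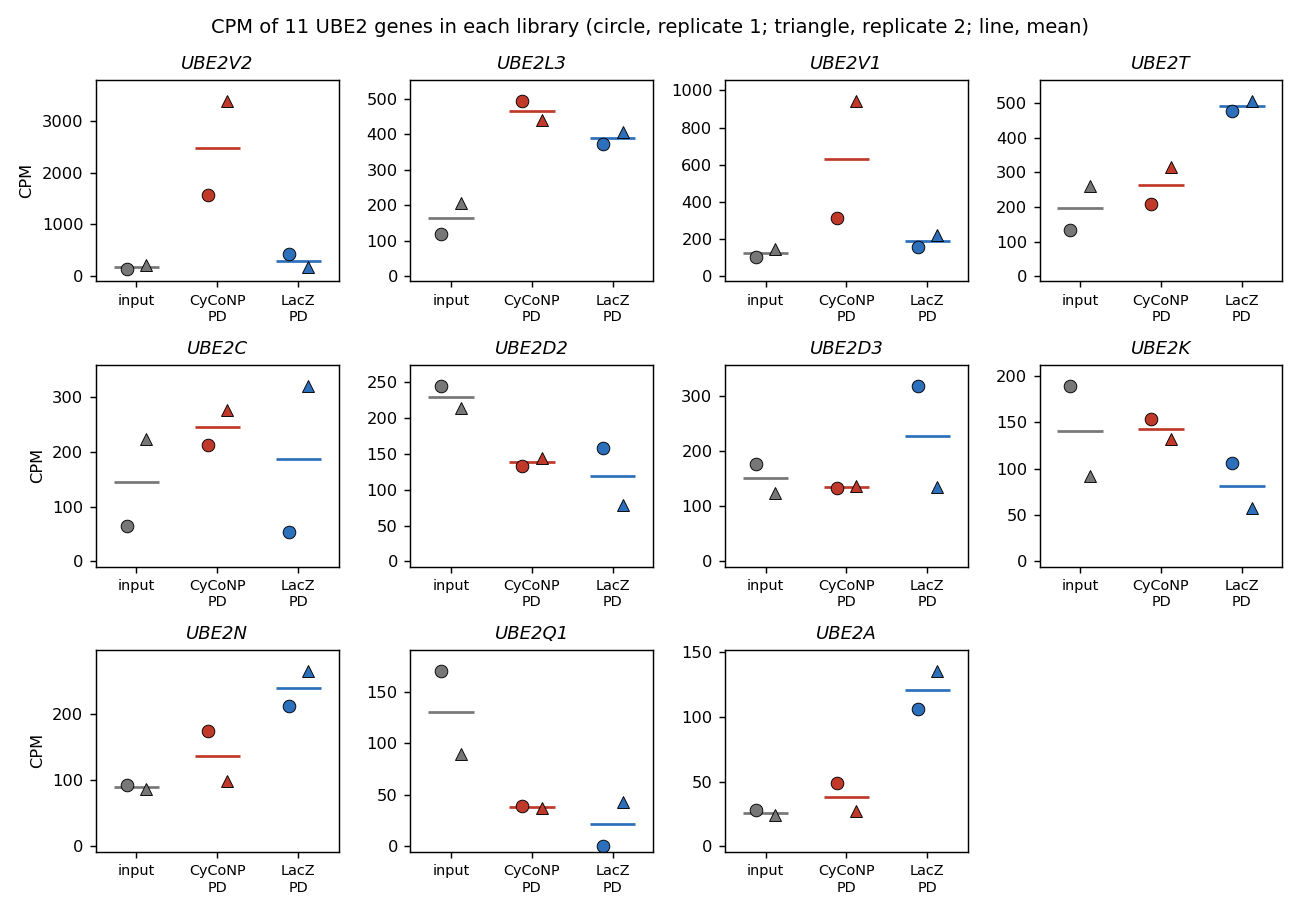
CPM (y axis, a scale of its own in each panel) of 11 UBE2 genes in input (grey), CyCoNP PD (red) and LacZ PD (blue); circles are replicate 1, triangles replicate 2 and lines the mean of both. UBE2V2 and UBE2V1 had their highest values in CyCoNP PD, at 3387 and 944 CPM in replicate 2, while UBE2N, UBE2T and UBE2A were highest in LacZ PD.

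The rest of the ubiquitin pathway was taken from 6 gene lists. In CyCoNP PD against input, edgeR without the block called 0 of their 71 tested genes, beside 0.119% of all genes called enriched. Calls with the replicate block, in the E1 and precursor lists, are given below. DESeq2 called 0 of the 43 to which it gave an adjusted p, beside 1.22% enriched and 0.294% depleted of all genes with one. With shares this low, 0 calls in lists of this size do not set the pathway apart from other genes. The E3 ligases and regulators that work with the UBE2N dimers, such as RNF8, RNF168, TRAF6 and PCNA, had 14 tested genes with a median log2 fold change of -0.0044 and 0 at an unadjusted p under 0.05 in edgeR. The deubiquitinases of K63-linked chains had 10 tested genes with a median of -0.70 and 0 at that level. The anaphase-promoting complex had 15 tested genes with a median of -0.14, and the cullin-RING core 13 with a median of -0.32, again with 0 at that level. The median over all genes was -0.01, and 387 of the 12565 genes were higher and 291 lower at that level.

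The E1 enzymes that charge the E2 family had 8 tested genes with a median log2 fold change of 0.32, and 1 gene, UBA6, was lower at an unadjusted p under 0.05. UBA6, which activates ubiquitin and FAT10, had 22 and 32 counts in input, 9 and 3 counts in CyCoNP PD, and 0 counts in both LacZ PD libraries. Its difference in CyCoNP PD was -2.49 (standard error 0.80, adjusted p = 0.531 from edgeR). With the replicate block it was -2.41 and called depleted (adjusted p = 0.0391 from edgeR), beside 0.732% of all genes. DESeq2 gave UBA6 no adjusted p. The precursors of ubiquitin and its relatives had 11 tested genes with a median of 0.01, and 1 was higher at an unadjusted p under 0.05. With the replicate block edgeR called 1 of these 11 enriched, beside 1.53% of all genes.

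The UBE2V1 and UBE2V2 coding sequences are close. The annotated proteins have 147 and 145 residues, of which 131 of 145 aligned residues were identical (90.3%), and the coding bases were identical at 367 of 438 aligned positions (83.8%). The longest exact stretch shared by the 2 canonical transcripts had 28 bases. How the counting tool divided reads between such relatives is not given in the sources used here, and a part of such reads in the difference of UBE2V1 was not tested. Pseudogenes held few counts, with 1 count over 4 pseudogenes of UBE2V2, 47 over 16 pseudogenes of UBE2V1 (3.98% of the counts of the gene) and 0 for the pseudogene of UBE2N. The readthrough gene PEDS1-UBE2V1, which overlaps UBE2V1, had 3 counts.

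The CyCoNP probes were also compared with the canonical transcript of each gene in GENCODE v44. The median longest stretch of exact complementarity to any CyCoNP probe was 10 bases over the 32 tested members and 10 bases over all 12528 genes with a transcript. UBE2V2 had 11 bases with CyCoNP probe 5, a length reached by 21.9% of all genes and by 6 of the 32 members, the others being UBE2D3, UBE2E3, UBE2G1, UBE2W and UBE2Z. UBE2V1 and UBE2N each had 10 bases, a length reached by 56.4% of all genes, and 2 probes reached it in each. Probe 12 was one of them for both, and is shown here since its letters match UBE2V1 at 1 end and UBE2N at the other. The sequence is written 5′ to 3′, and capitals mark the 10 bases complementary to the named transcript.

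UBE2V1: cccaacatggGGGAGAAAAA

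UBE2N: CCCAACATGGgggagaaaaa

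UBE2L3 had at most 9 bases with any CyCoNP probe. The part of probe matches in the differences between the pull-down and input was not tested. Against the whole CyCoNP transcript LINC02381-201, which has 1369 bases, the longest exact complementary stretch was 10 bases in UBE2V2, a length reached by 92.8% of all genes. UBE2V1 and UBE2N both had 12 bases, reached by 48.7%. Exact stretches leave out wobble pairs and interrupted pairing, and a match is a description of letters, not a site of binding.

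Length and base composition set UBE2V2 apart from UBE2V1 more than from UBE2N. The canonical UBE2V2 transcript has 4342 bases and a GC content of 34.0%, UBE2V1 has 2110 bases and 44.2%, and UBE2N has 4877 bases and 39.5%. The medians were 2856 bases and 45.1% over the 32 tested members, and 2889 bases and 47.6% over all genes. Only UBE2D1, at 33.6%, had a lower GC content in the family, and its log2 fold change in CyCoNP PD against input was 0.54 (standard error 1.01).

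The 3 genes of the dimers lie on different chromosomes of GRCh38 in GENCODE v44. UBE2V2 (ENSG00000169139) is on the plus strand of chromosome 8 from 48008415 to 48064708. UBE2V1 (ENSG00000244687) is on the minus strand of chromosome 20 from 50081124 to 50115959, and UBE2N (ENSG00000177889) is on the minus strand of chromosome 12 from 93405673 to 93441947. CyCoNP is on chromosome 12 as well. The counts are sums over whole genes, so they do not tell exons, introns or untranslated regions apart.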

How the data were processed

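RNA of 6 libraries was sequenced as PCR-amplified cDNA (15 cycles) on a Nanopore device. The authors used Guppy for basecalling, kept reads with a mean quality of at least 9 and of at least 100 bases, aligned them with minimap2 2.24-r1122 to GRCh38 and assigned them to genes of Ensembl 99 with Bambu 1.1.2. They deposited counts per gene without normalization. The deposited CPM values of the authors were used only to check the counts.

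Libraries were grouped by their GEO labels. Symbols came from GENCODE v44, which held 60357 of the 60676 genes. Genes whose counts summed to 10 or more were tested with edgeR 4.0.16 (TMM, quasi-likelihood F test, all 6 libraries in 1 fit, no block, Benjamini-Hochberg adjustment over all 12565 genes), and the standard error was derived from the F statistic. The study's methods used DESeq2, which was run here as an alternative (version 1.42.0). The other alternatives were size factors by DESeq2's method, library size alone, no filter on counts, edgeR's filterByExpr, fits of just 2 groups, a block for the replicate number in edgeR and in DESeq2, and the omission of 1 library at a time. The scripts were tested on simulated data. Same-numbered libraries deviated together across genes, with correlations of 0.449, 0.268 and 0.257, and the fits with the block treat them as pairs. The study took input from the extract before the pull-down. The labels number the replicates but do not say that same-numbered libraries share an extract. Depth, between 18870 and 1512148 counts, limits the precision most in LacZ PD.

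Named with values in every library are UBE2V2, UBE2V1, UBE2N, the 10 members with the most counts and those with an unadjusted p under 0.05 in any comparison. UBE2E3 was named after its values were seen. Other members outside this rule are given with fewer values, among them UBE2D1, UBE2E2, UBE2F, UBE2L6, UBE2M, UBE2Q2, UBE2R2 and UBE2S. Some genes under this rule and in the lists are not reported here by name. The members and lists were chosen with earlier results of these data known.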

Additional observations from a re-analysis of the deposited data

How the results depend on the processing

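In CyCoNP PD against input the log2 fold change of UBE2V2 kept its sign throughout. It was called with DESeq2 (3.82), without a count filter (3.81), with the replicate block in edgeR (3.83) and in DESeq2 (3.77), and without CyCoNP PD replicate 1 (range over the libraries left out 3.24 to 4.31). Against LacZ PD it was called with DESeq2 (3.67), without a count filter (3.90), with only the 2 groups compared (3.81), with the replicate block in edgeR (3.78) and in DESeq2 (3.66), without either input library and without CyCoNP PD replicate 1 (range 3.16 to 4.26). The number of members called in CyCoNP PD against input was thus 1 with DESeq2 and without a filter, 2 with the replicate block in either tool, and 0 to 1 with a library left out. Against LacZ PD it was 1 with DESeq2, without a filter, with only the 2 groups and with the block in edgeR, 2 with the block in DESeq2, which added UBE2V1, and 0 to 1 with a library left out. The near-zero value of UBE2V2 in LacZ PD against input changed sign without a count filter (-0.087) and ranged from -0.33 to 0.53 over the libraries left out, and it was never called. Over all 12565 genes, DESeq2 with the block called 87 enriched against input and 50 against LacZ PD. It gave no adjusted p to 7552 and 9744 of them. The all-gene counts without a filter, with only 2 groups and with a library left out are not given here. Why the calls changed was not tested.

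The 11 other members that the naming rule selects were followed in CyCoNP PD against input under 14 alternatives, 154 values in all, of which 148 kept their sign and their side of the threshold. UBE2V1 was called with the replicate block in both tools, and the sign changed for UBE2T and UBE2D3 without input replicate 1, and for UBE2K without input replicate 2 or CyCoNP PD replicate 1. With each library left out in turn, UBE2V1 ranged from 1.41 to 2.96, UBE2L3 from 1.15 to 2.12, UBE2C from 0.094 to 2.06, UBE2N from 0.21 to 1.06, UBE2A from 0.12 to 1.01, UBE2T from -0.022 to 1.14, UBE2D3 from -0.24 to 0.087 and UBE2K from -0.25 to 0.61. The gain of UBE2V2 over UBE2V1 was 1.61 with 1 added to each count, 1.61 with the readthrough gene added, 1.61 as the mean difference within same-numbered pairs, and 1.37 to 1.84 with a library left out. The block changed no other call of a member named here. What depth limits is LacZ PD, where 3 counts are 159 CPM of replicate 1.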
